A study of Mus musculus with 10 samples.

Results

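Guanylate-binding proteins (GBPs) and immunity-related GTPases (IRGs) are interferon-inducible enzymes that act against microbes inside cells. The 10 genes described here were taken by symbol from a table of 34573 genes: Gbp2, Gbp3, Gbp4, Gbp6, Gbp7, Gbp8 and Gbp9, which are 7 GBPs, and Igtp, Irgm1 and Irgm2, which are 3 IRGs. All 10 were in the table and passed the filter on low counts, with 182 to 1536 counts per gene and library. RNA sequencing covered 10 libraries of naive T cells (TCRb+, CD25-, CD44-, CD62L high) sorted from the spleens of mice aged 6 weeks, 2 libraries in each of 5 groups. From wild-type mice came the groups WT CD4 and WT CD8, sorted as CD4 and as CD8 T cells. OB11/OB11 mice supplied 3 groups by coreceptor, CD4hi (bright for CD4), DP (positive for CD4 as well as CD8) and CD4lo (dim for CD4). What the OB11 allele changes is not said in the labels, and the series is titled for the autoregulatory loop of ThPOK, the transcription factor encoded by Zbtb7b that maintains CD4 T cell identity. No label names separate animals for the libraries of a group, so p-values measure only the spread between these libraries, which may be technical.

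GBPs are large GTPases of the dynamin superfamily that assemble on vacuoles and bacteria in the cytosol, and some carry a prenyl anchor. IRGs fall into effectors that load onto vacuoles of parasites such as Toxoplasma, and regulators of the Irgm type (Irgm1, Irgm2 and Igtp, also called Irgm3), which sit on the cell's own membranes and hold the effectors inactive there. Interferon gamma induces both families, in part through IRF1, and type I interferon induces many of the same genes. In mice, Irgm1 is also known to keep activated CD4 T cells alive when interferon gamma is present.

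The GBP members lie in 2 clusters of the mouse genome and the IRG members all on chromosome 11 (GENCODE M21, build GRCm38). Gbp7 (chr3:142530342-142550149), Gbp3 (chr3:142560026-142573209) and Gbp2 (chr3:142620602-142638008) follow each other on the plus strand of chromosome 3. Gbp8 (chr5:105014150-105139540), Gbp9 (chr5:105077630-105139539), Gbp4 (chr5:105115767-105139586) and Gbp6 (chr5:105270702-105293698) lie on the minus strand of chromosome 5. Irgm1 (chr11:48861968-48871683, minus strand) stands apart on chromosome 11 from Igtp (chr11:58199556-58207591) and Irgm2 (chr11:58199618-58222782), which share the plus strand. Each is annotated as protein coding, and the counts are of reads over whole genes, so no exon or transcript is told apart here. The GENCODE models of Gbp8, Gbp9 and Gbp4 overlap on one strand, as do those of Irgm2 and Igtp, while the RefSeq models do not. Gbp6 overlaps the model Gm43302 on its strand, and Gbp7 overlaps Gm43802. Of all 50-base words in the exons of Gbp6, 70.7% also occur in another gene, 65% in Gm43302 and 49.9% in genes that do not overlap it, among them Gbp10. Gbp7 shared 10.5% with Gm43802. The share with genes that do not overlap was 12.9% for Gbp8, 6.46% for Gbp4 and at most 4.25% for the other 7 members. How shared reads were counted is not given in the sources used here, so the split between Gbp6, Gm43302 and Gbp10, and between the other overlapping models, is uncertain.

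Promoter windows from RefSeq (GRCm38.p6, 250 bases before to 50 after a transcription start) were given for 6 of the 10 members, namely Gbp2, Gbp3, Gbp7, Igtp, Irgm1 and Irgm2. The last 120 bases before the start are shown for these, 5′ to 3′ on the strand of the gene, because GBPs and IRGs are known interferon targets. Capitals mark the core of the interferon-stimulated response element (ISRE; GAAANNGAAA or, on the other strand, TTTCNNTTTC) and the gamma-activated site (GAS; TTCNNNGAA), elements known from interferon-induced promoters.
Gbp2: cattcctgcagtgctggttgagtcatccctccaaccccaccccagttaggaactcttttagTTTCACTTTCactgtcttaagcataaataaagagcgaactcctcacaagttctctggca
Gbp3: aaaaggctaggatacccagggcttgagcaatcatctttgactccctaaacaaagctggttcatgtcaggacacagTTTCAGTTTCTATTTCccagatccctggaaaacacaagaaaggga
Gbp7: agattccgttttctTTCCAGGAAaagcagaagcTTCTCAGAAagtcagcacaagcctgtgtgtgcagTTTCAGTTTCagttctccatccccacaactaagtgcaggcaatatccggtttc
Igtp: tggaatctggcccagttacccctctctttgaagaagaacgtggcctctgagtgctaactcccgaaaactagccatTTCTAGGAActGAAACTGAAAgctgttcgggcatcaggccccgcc
Irgm2: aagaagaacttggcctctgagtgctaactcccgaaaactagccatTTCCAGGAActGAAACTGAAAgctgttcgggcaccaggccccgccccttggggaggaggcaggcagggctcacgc
Irgm1: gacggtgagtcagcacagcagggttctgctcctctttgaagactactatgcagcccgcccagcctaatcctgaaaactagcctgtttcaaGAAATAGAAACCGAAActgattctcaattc

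The stretches shown are chr3:142620543-142620662, chr3:142559924-142560043 and chr3:142530216-142530335 for the GBPs, and chr11:58199436-58199555, chr11:58214857-58214976 and chr11:48871421-48871540 for the IRGs, with Irgm1 on the minus strand and the others on the plus strand. An ISRE core occurred in 6 of the 6 windows, against 3.44% of all 32851 RefSeq windows of the same length and 12.1% of the windows of the 364 genes that were higher in all 4 comparisons with WT CD4 and had one. The core also occurred in the windows of other family genes, namely Gbp5, Gbp2b, Tgtp1, Tgtp2 and Gm12250. In the 6 members the core lay within 64 bases of the start of the window's transcript, from -64 to -55 in Irgm2 to -24 to -15 in the downstream match of Irgm1. Other annotated starts differ. The GENCODE models of Gbp2, Gbp3 and Irgm1 reach into the stretches shown, and that of Irgm1 covers all of its stretch. The RefSeq gene of Gbp3 also begins inside its stretch, at chr3:142560016. The GENCODE model of Irgm2 begins far upstream, at chr11:58199618. The distances hold only for the starts used here. Gbp3 and Irgm1 each held a pair of matches that overlap by 4 bases. The GBP promoters shown carry the core in the TTTCNNTTTC direction and the IRG promoters shown in the GAAANNGAAA direction, while the IRG Gm12250 has 2 cores in the TTTCNNTTTC direction. A GAS occurred in 3 of the 6 windows, those of Gbp7 with 2 matches, Igtp and Irgm2, against 8.3% of all windows. In Igtp and Irgm2 the GAS and the ISRE core stand 2 bases apart, as they do in Tgtp1 and Tgtp2. The windows of Gbp5 and Gm12250 also hold a GAS. The windows of the neighbouring genes Igtp and Irgm2 matched at 247 of 336 aligned columns over the whole window (73.5%) and at 244 of 270 in their best local alignment (90.4%). Every other pair of the 6 windows reached at most 54.2% identity over the whole window. The match of letters is a description of these windows and not of binding.

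**Figure D1:**
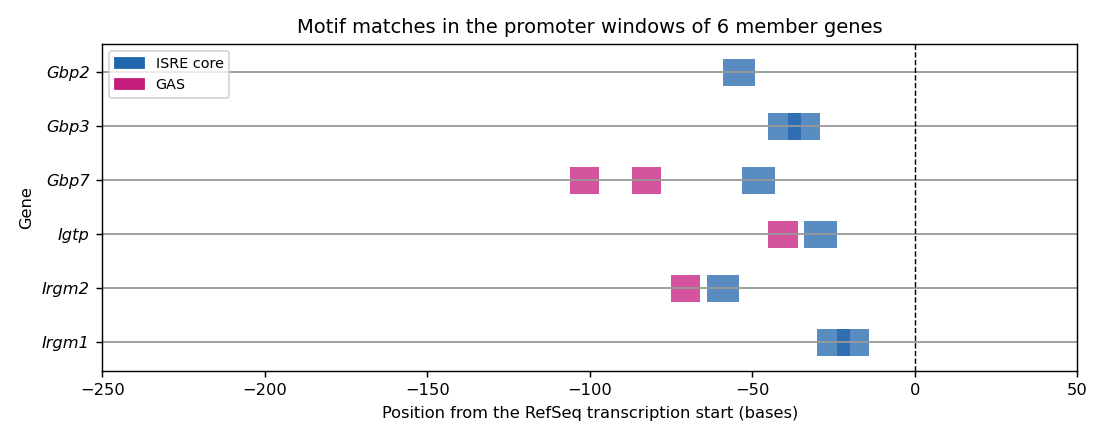
Positions of the ISRE core (blue) and GAS (magenta) matches in the RefSeq promoter windows of 6 members, with 1 line per gene. The horizontal axis gives the distance in bases from the transcription start used for the window. All 6 genes have an ISRE core between -64 and -15, and Gbp7, Igtp and Irgm2 also have a GAS.

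Library totals ran from 5055956 to 7417789 counts, and values below are CPM (counts scaled to a common library size, with TMM factors) unless a log2 fold change is named. Zbtb7b measured 145 to 158 CPM (WT CD4), 27.7 to 28 (CD4hi), 7.05 to 9.18 (DP), 8.62 to 9.38 (CD4lo) and 2.72 to 2.96 (WT CD8). Cd4 (33.2 to 34.9 CPM in CD4lo against 612 to 671 in WT CD4) and Cd8a (256 to 260 in DP, 601 to 606 in WT CD8 and at most 3.61 elsewhere) followed the sort gates. Markers of naive T cells summed to 3604 to 3782 CPM (WT CD4), 3234 to 3393 (CD4hi), 3274 to 3288 (DP), 3667 to 3668 (CD4lo) and 3816 to 3851 (WT CD8). Library titles have an extra letter L in WT CD4 and CD4lo and not in the other 6. Within the mark only CD4lo can be compared with WT CD4, and only CD4hi, DP and WT CD8 with each other. Elsewhere the mark goes with the group and the pair cannot be told apart.

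Nearly all members were lowest in WT CD4 and higher in WT CD8 and in each of the OB11/OB11 groups. Tests were edgeR quasi-likelihood tests of all 12193 genes that passed the filter, and a gene counts as higher or lower at a Benjamini-Hochberg adjusted p under 0.05. In WT CD8, 9 of 10 members were higher than in WT CD4 and 0 were lower, where 11.1% of all tested genes were higher and 10.6% lower. In CD4hi, 9 members were higher and 0 lower, against 10.4% and 6.43% of all genes. In DP, 10 of 10 were higher, against 11.1% of all genes higher and 8.06% lower. In CD4lo, which shares the title mark with WT CD4, 9 were higher and 0 lower, against 8.82% and 7.02%. The median log2 fold change of the members was 0.77 in WT CD8, 0.57 in CD4hi, 0.66 in DP and 0.66 in CD4lo, and that of all tested genes lay between -0.03 and 0.00. All 4 comparisons use the same pair of WT CD4 libraries, so they are not independent of each other. The WT CD4 libraries also differed most from each other, with a mean chi-square over genes of 15.1. The same value was 8.14 in CD4lo, 6.93 in CD4hi, 3.6 in WT CD8 and 3.48 in DP. All groups were fitted in one model, so each SE and adjusted p draws on the spread of every group, not only of those compared. Both WT CD4 libraries lay below both libraries of the other group for 10 members in CD4hi, DP and CD4lo and for 9 in WT CD8, the exception being Gbp3; over all tested genes, 25.8% to 29.5% were placed in this way. In bulk RNA, a change in the share of cells that express a gene and a change in RNA per cell cannot be told apart.

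**Figure D2:**
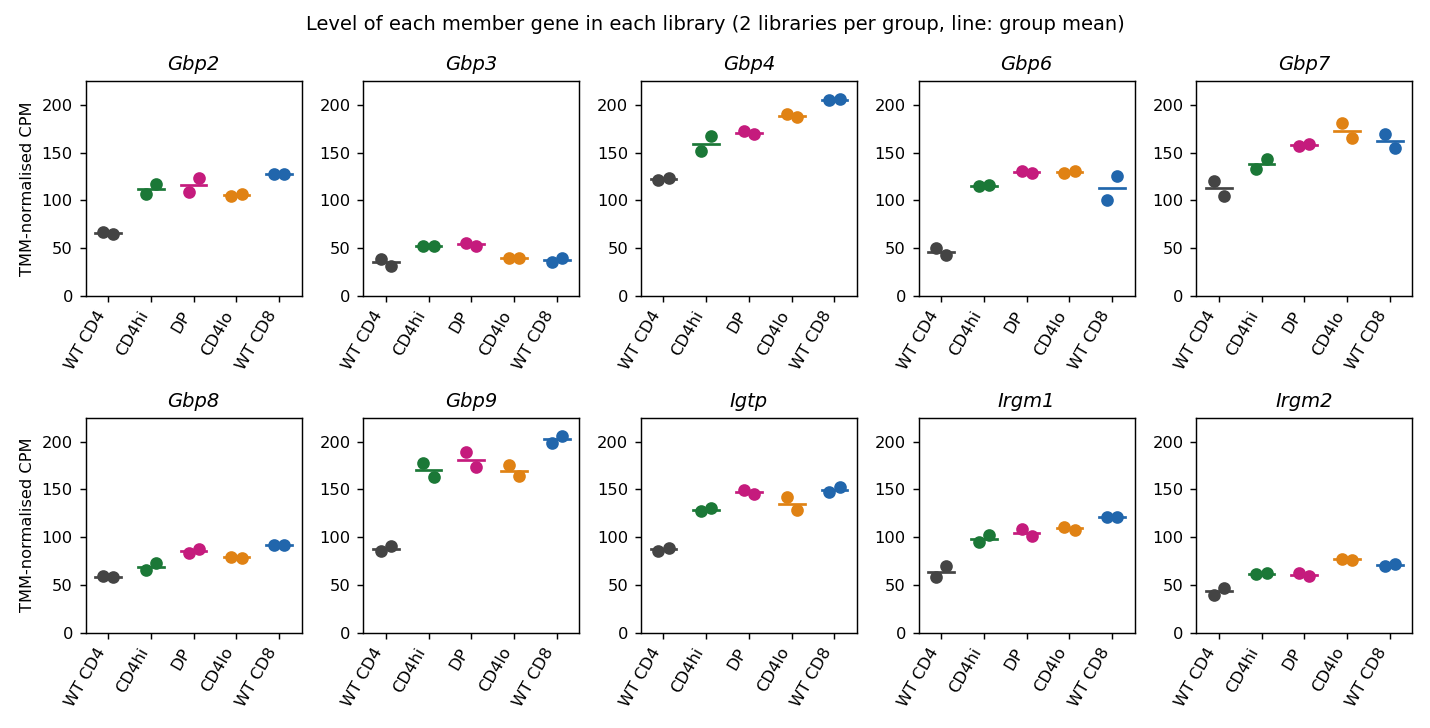
Level of each of the 10 members in each library, in TMM-normalised CPM from 0, with 2 points per group and a line at the group mean. The 2 WT CD4 libraries lie lowest for every gene except Gbp3. How far the other groups spread differs by gene: their means run from 129 to 150 for Igtp, 160 to 206 for Gbp4 and 69 to 91.4 for Gbp8.

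Among the GBPs of chromosome 5, Gbp6 changed most of the 10 members. Its level was 49.6 and 43.1 (WT CD4), 115 and 116 (CD4hi), 131 and 129 (DP), 129 and 131 (CD4lo) and 100 and 126 (WT CD8). The WT CD4 libraries stood apart from all others, while the WT CD8 libraries enclosed those of CD4hi. The log2 fold change against WT CD4 was 1.30 ± 0.11 (SE, n = 2 libraries per group) in WT CD8, 1.32 ± 0.11 in CD4hi, 1.49 ± 0.11 in DP and 1.49 ± 0.11 in CD4lo, which is 2.46- to 2.81-fold, with edgeR adjusted p from 1.6e-07 to 7.76e-07. Gbp9 followed, with 84.9 and 91.1 (WT CD4), 178 and 163 (CD4hi), 189 and 173 (DP), 175 and 164 (CD4lo) and 199 and 206 (WT CD8). Its log2 fold change was 1.20 ± 0.08 in WT CD8, 0.95 ± 0.08 in CD4hi, 1.03 ± 0.08 in DP and 0.94 ± 0.08 in CD4lo. Its WT CD8 libraries were the highest, although no step between neighbouring groups above WT CD4 passed the test.

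Gbp4 showed a graded order, with 121 and 123 (WT CD4), 152 and 167 (CD4hi), 173 and 169 (DP), 190 and 187 (CD4lo) and 205 and 206 (WT CD8). The groups did not overlap, but only the lowest step, from WT CD4 to CD4hi, passed the test between neighbours in the order (log2 fold change 0.39 ± 0.07, adjusted p = 0.00209). That call was lost without CD4hi replicate 2 (0.28, adjusted p = 0.0778). Against WT CD4, Gbp4 was also higher by 0.76 ± 0.07 in WT CD8, 0.49 ± 0.07 in DP and 0.63 ± 0.07 in CD4lo. Gbp8 measured 58.8 and 58.4 (WT CD4), 65.5 and 72.5 (CD4hi), 82.9 and 87 (DP), 79.1 and 78.5 (CD4lo) and 91.6 and 91.2 (WT CD8). It was higher by 0.64 ± 0.08 in WT CD8, 0.54 ± 0.08 in DP and 0.43 ± 0.08 in CD4lo, and the value in CD4hi (0.24 ± 0.08, adjusted p = 0.0616) did not pass. No pair of neighbouring groups in the order of Gbp8 levels passed the test.

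Of the GBPs of chromosome 3, Gbp2, which is known in mice to coat Toxoplasma vacuoles, had 66.8 and 64.3 (WT CD4), 107 and 117 (CD4hi), 109 and 123 (DP), 105 and 107 (CD4lo) and 128 and 128 (WT CD8). The WT CD8 libraries were highest, and the OB11/OB11 libraries lay between 105 and 123. Its log2 fold change against WT CD4 was 0.97 ± 0.08 in WT CD8, 0.77 ± 0.09 in CD4hi, 0.82 ± 0.08 in DP and 0.69 ± 0.09 in CD4lo, with adjusted p from 1.04e-06 to 4.37e-05. Gbp7 had 120 and 105 (WT CD4), 133 and 143 (CD4hi), 157 and 159 (DP), 181 and 165 (CD4lo) and 169 and 155 (WT CD8). It was higher by 0.53 ± 0.09 in WT CD8, 0.49 ± 0.09 in DP and 0.62 ± 0.09 in CD4lo. In CD4hi its log2 fold change was 0.29 ± 0.09 with adjusted p = 0.0347, the weakest call against WT CD4. It was lost without WT CD4 replicate 2, CD4lo replicate 2 or any 1 library of CD4hi, DP or WT CD8 (0.20 to 0.35, adjusted p 0.0523 to 0.334), and also with DESeq2 (adjusted p 0.0652) and when only the libraries compared were fitted (0.11).

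Gbp3 had another order. Its level was 38.6 and 31.7 (WT CD4), 52.6 and 52.3 (CD4hi), 55 and 52.5 (DP), 39.4 and 39.9 (CD4lo) and 35.3 and 39.5 (WT CD8). The CD4hi and DP libraries lay above all others, and the libraries of WT CD4, CD4lo and WT CD8 lay between 31.7 and 39.9. Gbp3 was higher than WT CD4 in CD4hi (0.59 ± 0.11, adjusted p = 0.00128) and DP (0.62 ± 0.10, adjusted p = 0.000625), with 0.11 ± 0.11 in WT CD8 (adjusted p = 0.531) and 0.18 ± 0.11 in CD4lo (adjusted p = 0.28). Direct tests placed CD4hi and DP above WT CD8, by 0.48 ± 0.10 and 0.52 ± 0.10, and above CD4lo, with -0.40 ± 0.10 and -0.44 ± 0.10 for CD4lo. The calls against WT CD8 were lost without WT CD8 replicate 1 or without either library of the OB11/OB11 group (adjusted p 0.0639 to 0.116). Those of CD4lo were lost without either CD4lo library or either library of the group compared (adjusted p 0.116 to 0.191), and that against CD4hi also without any 1 DP or WT CD8 library (adjusted p 0.0502 to 0.085). With DESeq2, adjusted p for these 4 values ran from 0.0561 to 0.226.

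All 3 Irgm-type regulators were higher than in WT CD4 in all 4 comparisons. Igtp, a regulator found on the endoplasmic reticulum, had 85.5 and 88.8 (WT CD4), 127 and 130 (CD4hi), 149 and 145 (DP), 142 and 128 (CD4lo) and 147 and 152 (WT CD8). Both WT CD4 libraries lay below all others, and the log2 fold change was 0.78 ± 0.08 in WT CD8, 0.56 ± 0.08 in CD4hi, 0.75 ± 0.08 in DP and 0.63 ± 0.08 in CD4lo. Irgm1 had 57.9 and 69.2 (WT CD4), 94.7 and 102 (CD4hi), 108 and 101 (DP), 111 and 107 (CD4lo) and 121 and 121 (WT CD8). It was higher than in WT CD4 by 0.93 ± 0.09 in WT CD8, 0.62 ± 0.09 in CD4hi, 0.71 ± 0.09 in DP and 0.77 ± 0.09 in CD4lo, and its WT CD4 libraries differed from each other more than those of any other group. Irgm2, a regulator of the Golgi, had 39.1 and 47 (WT CD4), 61 and 62.5 (CD4hi), 62.1 and 59 (DP), 76.8 and 76.2 (CD4lo) and 69.6 and 71.4 (WT CD8). CD4lo held its highest libraries, and the log2 fold change against WT CD4 was 0.82 ± 0.09 there, 0.71 ± 0.09 in WT CD8, 0.51 ± 0.09 in CD4hi and 0.49 ± 0.09 in DP. The largest adjusted p among the 12 values of the 3 regulators against WT CD4 was 0.00179. The median over the 3 IRGs was 0.78 (WT CD8), 0.56 (CD4hi), 0.71 (DP) and 0.77 (CD4lo), and over the 7 GBPs it was 0.76, 0.59, 0.62 and 0.63 in the same order.

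**Figure D3:**
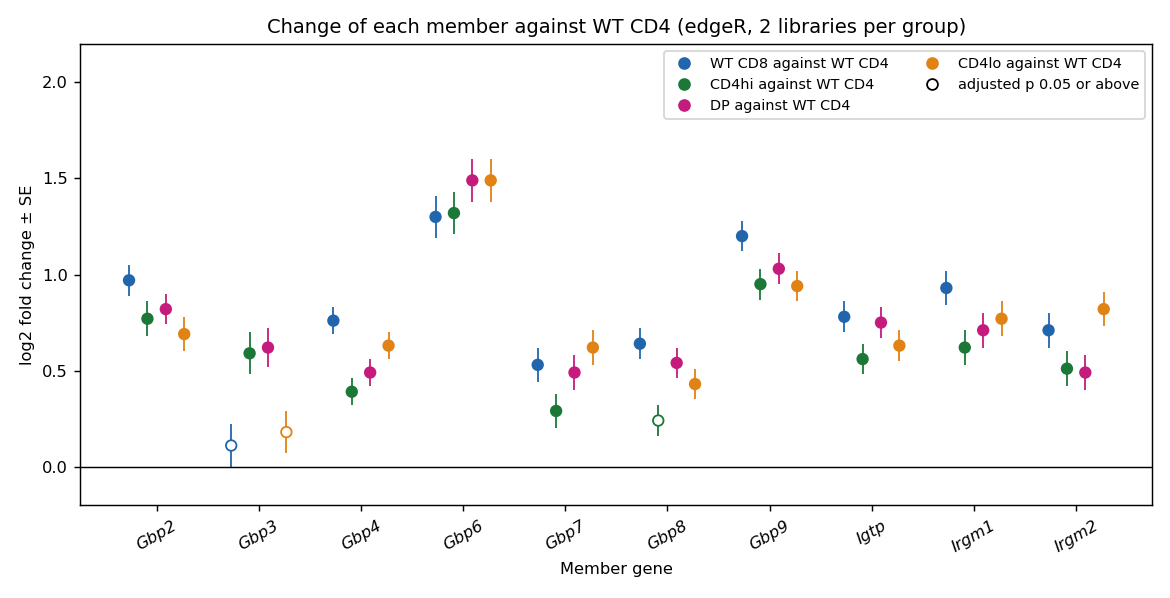
Log2 fold change ± SE of each member in WT CD8, CD4hi, DP and CD4lo against WT CD4 (edgeR, 2 libraries per group), with open circles where the adjusted p was 0.05 or above. All 40 values are above 0, Gbp6 is highest at 1.30 to 1.49, and the open circles are Gbp3 in WT CD8 and CD4lo and Gbp8 in CD4hi.

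Among the 4 groups other than WT CD4, all member changes lay between -0.44 and 0.52 on the log2 scale. DP against CD4hi gave 0 of 10 calls in edgeR, 3 at an unadjusted p under 0.05, and 0 under each of 8 other settings including DESeq2 and limma-voom, against 0.763% of all genes higher and 0.861% lower. Their log2 fold changes ran from -0.03 to 0.30, with Gbp8 at the top (0.30 ± 0.08, adjusted p = 0.094). CD4lo against WT CD8 likewise gave 0 calls in edgeR, with 3 at an unadjusted p under 0.05 and 0 with DESeq2, against 3.41% of genes higher and 2.08% lower. Its values ran from -0.27 for Gbp2 (± 0.08, adjusted p = 0.0749, and 0.0488 without WT CD4 replicate 2) to 0.19 for Gbp6.

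CD4lo against CD4hi gave 1 member higher, Gbp7 (0.33 ± 0.09, adjusted p = 0.0324), and 1 lower, Gbp3, against 2.76% and 4.27% of all genes. CD4lo against DP gave 1 higher, Irgm2 (0.34 ± 0.09, adjusted p = 0.0328), and 1 lower, again Gbp3, against 2.55% and 3.64%. CD4hi against WT CD8 gave 1 higher, Gbp3, and 3 lower, against 6.22% and 3.69% of all genes. The lower members were Gbp4 (-0.37 ± 0.07, adjusted p = 0.0044), Gbp8 (-0.40 ± 0.08, adjusted p = 0.00359) and Irgm1 (-0.30 ± 0.09, adjusted p = 0.0442). DP against WT CD8 gave 1 higher, Gbp3, and 1 lower, Gbp4 (-0.26 ± 0.07, adjusted p = 0.043), against 4.57% and 2.28%. The median over all 10 members was -0.23 in CD4hi and -0.12 in DP against WT CD8. Each call in these 4 comparisons was lost when some single library was left out. The Gbp7 call was lost without CD4hi replicate 1, CD4lo replicate 1 or any 1 DP or WT CD8 library (adjusted p 0.0508 to 0.243), and the Irgm2 call without any 1 library of DP, CD4lo or WT CD8 (adjusted p 0.0569 to 0.258). Against WT CD8, the CD4hi calls were lost without CD4hi replicate 1 for Gbp4 (adjusted p 0.0652), Gbp8 (0.066) and Irgm1 (0.23). Those of Gbp4 and Irgm1 were also lost without either WT CD8 library (adjusted p 0.0524 to 0.192), and that of Gbp4 in DP without any 1 library of DP, CD4lo or WT CD8 (adjusted p 0.0633 to 0.28). With every library kept, DESeq2 did not call Irgm2 in CD4lo against DP (adjusted p 0.213), Irgm1 in CD4hi against WT CD8 (0.11) or Gbp4 in DP against WT CD8 (0.0687). Without the filter on low counts the Irgm2 call (0.0539), the Gbp4 call in DP (0.116) and the Gbp3 call in CD4lo against CD4hi (0.0775) were also lost. Other values passed under some alternatives. Irgm2 in CD4lo against CD4hi passed without either WT CD4 library and with RLE size factors (adjusted p 0.0249 to 0.0477). Gbp4 there passed without WT CD4 replicate 2 or CD4hi replicate 2 and with limma-voom (0.0364 to 0.0498). Gbp9 in CD4hi against WT CD8 passed without either WT CD4 library or CD4lo replicate 2, with limma-voom and when only the libraries compared were fitted (0.0253 to 0.0495). The fit of only the libraries compared also called Gbp7 (0.0489) and Igtp (0.0393) in CD4hi and Irgm1 in DP (0.0437), each lower than in WT CD8.

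**Figure D4:**
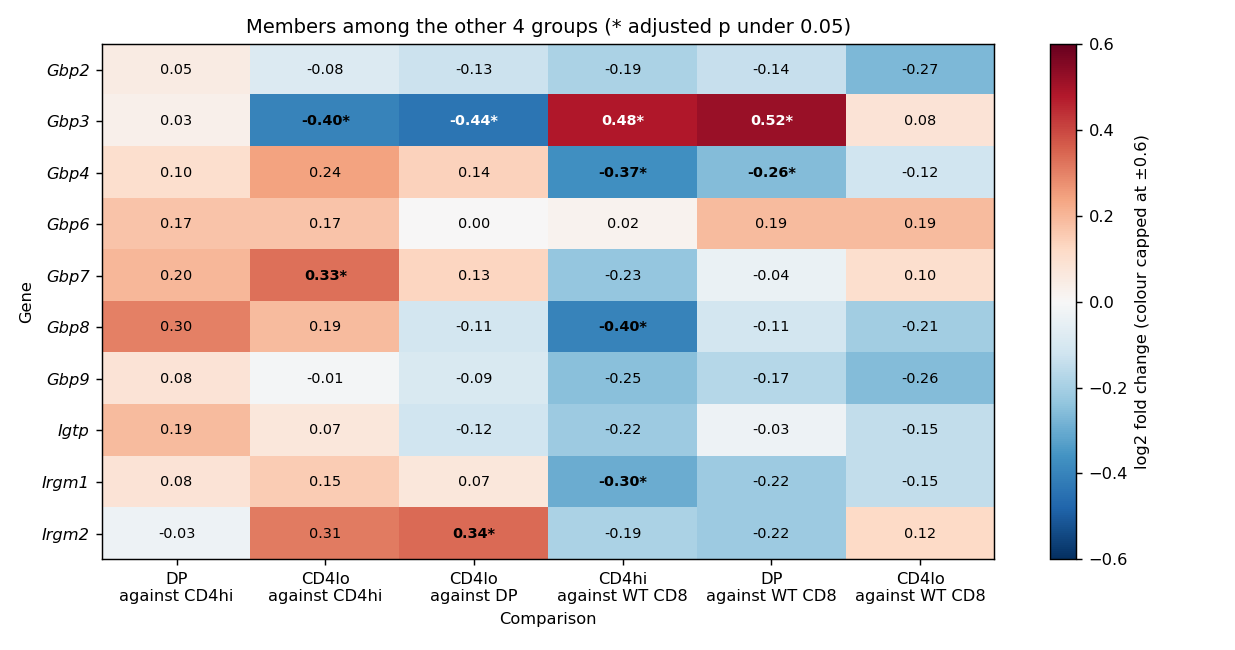
Log2 fold change of each member in the 6 comparisons that do not involve WT CD4, as numbers and colour, with an asterisk where the edgeR adjusted p was under 0.05. Values stay between -0.44 and 0.52, and Gbp3 carries 4 of the 10 asterisks.

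Levels of different genes were compared only per kilobase of GENCODE exon. Of the 50-base words, 70.7% of Gbp6 also occur in another gene, and 11.8% of Igtp occur in Irgm2. How such reads were counted is not given, so the order of the genes is uncertain. Igtp stood highest in every group, from 43.1 CPM per kilobase in WT CD4 to 74.1 in WT CD8, and Gbp2 came next, from 26.1 to 50.9. Gbp6 was the lowest member in WT CD4, at 7.78 CPM per kilobase, and reached 21.8 in DP and CD4lo. In those groups Gbp3 (16.5 in DP and 12.2 in CD4lo) was below it, as were Irgm1 and Irgm2.

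The members' profiles were alike across the 10 libraries. Over the 45 pairs, Pearson r of log2 CPM ran from 0.13 to 0.98 with a median of 0.86, as a description of libraries that share their group in pairs and of which the WT CD4 libraries were lowest for 9 of the 10 genes. Gbp3 had the lowest r with the mean of the others, 0.35, and the other 9 had 0.87 to 0.98. Among 7723 genes of at least 3 in average log2 CPM, the profile closest to the mean member profile was that of Trim30a (r = 0.993), an interferon-induced TRIM protein. Rnf213, Eomes, Usp11, Trim30c, Tgtp2 and Ddx60 were also among the closest, all at 0.988 or above over the same 10 libraries. Trim30a measured 102 CPM in WT CD4 and 162 to 190 in the other groups, and Tgtp2, itself an IRG, 72.6 and 129 to 178.

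Of 22 further GBP and IRG symbols listed, 18 were in the table, and all 18 were tested. They did not move as one. Higher than in WT CD4 were 9 in WT CD8, 8 in CD4hi, 9 in DP and 9 in CD4lo, and lower were 4, 3, 5 and 2, with medians of 0.77, 0.52, 0.70 and 0.50. Of all tested genes, 8.82% to 11.1% were higher and 6.43% to 10.6% lower, with medians between -0.03 and 0.00. Gbp10, the close relative of Gbp6, was higher by 2.53 ± 0.17 in WT CD8, 1.92 ± 0.18 in CD4hi, 2.39 ± 0.17 in DP and 1.75 ± 0.18 in CD4lo. Gbp5, a GBP known for its part in inflammasome activation, was higher by 0.74 to 1.02. The vacuole-loading effectors Tgtp1 (Irgb6; 0.68 to 1.15), Tgtp2 (0.83 to 1.29) and Gm12250, the symbol to which RefSeq gives the synonym Irgb10 (0.76 to 1.04), were higher in all 4 comparisons. GENCODE M21 annotates Gm12250 as a processed pseudogene. Iigp1, the effector also called Irga6, was higher by 0.46 to 0.58 in WT CD8, CD4hi and DP and had 0.30 ± 0.11 in CD4lo (adjusted p = 0.0736). Gm12185 (1.24 to 2.07) and Irgc1 (2.84 to 3.59) were also higher in all 4. Irgc1, an IRG known from testis, had 4 and 8 counts in the WT CD4 libraries and 35 to 85 in the others. Ifi47, another IRG, was not on the list and was picked after its values were seen; it was higher by 0.33 to 0.64 in the 4 comparisons.

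The row named Gbp1 went the other way. RefSeq gives Gbp1 as an older symbol of Gbp2b, which has no row of its own, and Gbp2b is the chromosome 3 neighbour of Gbp2. Its counts were 53 and 66 (WT CD4), 34 and 23 (CD4hi), 20 and 21 (DP), 6 and 4 (CD4lo) and 0 and 2 (WT CD8). No groups overlapped, and the order from high to low was WT CD4, CD4hi, DP, CD4lo and WT CD8. The log2 fold change against WT CD4 was -1.60 ± 0.36 in DP (adjusted p = 0.00596) and -3.51 ± 0.45 in CD4lo (adjusted p = 6.37e-05), while that in CD4hi (-0.90 ± 0.35, adjusted p = 0.0945) did not pass. From the summed counts, WT CD4 exceeded WT CD8 58.4-fold (95% exact interval 15.8 to 488, counting error only). Within the OB11/OB11 groups, CD4lo was below DP by 1.91 ± 0.51 (adjusted p = 0.0362). The RefSeq window of Gbp2b also holds an ISRE core, from -137 to -128. Others were lower as well. 9930111J21Rik1 was lower in all 4 comparisons (-0.47 to -0.28) and 9930111J21Rik2 in WT CD8, CD4hi and DP (-0.50 to -0.43). Irgq was lower in CD4hi (-0.70 ± 0.19), Gvin1, a very large inducible GTPase, in DP (-0.82 ± 0.13), and F830016B08Rik in WT CD8 and DP (-2.33 ± 0.66 and -1.87 ± 0.62). Gbp11, annotated as a polymorphic pseudogene, was higher in DP and CD4lo (1.36 ± 0.35 and 1.46 ± 0.35), and Gm4070 in WT CD8 and CD4lo (0.80 ± 0.15 and 0.70 ± 0.15). Gm4951 and Gm5431 passed in no comparison with WT CD4.

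The genes beside the members on the chromosomes were also counted. Of the 40 nearest tested genes around the 4 member positions, 5 on each side, 32 were neither GBP nor IRG. Of these 32, 3 were higher in WT CD8, 3 in CD4hi, 3 in DP and 0 in CD4lo, and 1 was lower in each comparison, with medians between -0.09 and -0.01. Over all tested genes, 8.82% to 11.1% were higher and 6.43% to 10.6% lower.

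Genes of the interferon gamma pathway were partly higher in the same groups. Ifng, the ligand, was low, with 7 and 12 counts in WT CD4, 23 and 18 in CD4hi, 35 and 50 in DP, 51 and 45 in CD4lo and 13 and 19 in WT CD8. It was higher than in WT CD4 in CD4hi (1.27 ± 0.40), DP (2.08 ± 0.37) and CD4lo (2.38 ± 0.36), and WT CD8 had 0.78 ± 0.42 (adjusted p = 0.209). The receptor chains differed, with Ifngr1 higher in WT CD8 and CD4lo (0.51 ± 0.10 and 0.57 ± 0.10) and Ifngr2 lower in all 4 comparisons (-0.82 to -0.40). Of the receptor kinases, Jak2 was higher in CD4hi and DP (0.46 ± 0.08 and 0.36 ± 0.08) and Jak1 in WT CD8 (0.26 ± 0.06). Irf1, which activates GBP promoters, was higher by 0.57 ± 0.07 (WT CD8), 0.24 ± 0.07 (CD4hi), 0.38 ± 0.07 (DP) and 0.38 ± 0.07 (CD4lo). Socs1, the feedback inhibitor, was higher in DP and CD4lo (0.57 ± 0.16 and 0.54 ± 0.16). Over the list of 16 signalling genes, 8, 6, 9 and 8 were higher and 1, 2, 2 and 2 lower in WT CD8, CD4hi, DP and CD4lo. The shares of all tested genes were 8.82% to 11.1% higher and 6.43% to 10.6% lower. The negative regulator Ptpn6 was lower in the 3 OB11/OB11 groups (-0.61 to -0.43), and Irf8 was higher in WT CD8, DP and CD4lo (0.77 to 2.04). Irf8 was highest in DP (24.6 CPM) and WT CD8 (17.2), the groups with the highest B cell marker sums given below. The part of other cells in the changes of this list was not tested.

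Other interferon gamma targets, such as proteasome and antigen presentation genes, had 5, 7, 11 and 9 of 15 tested genes higher and 0 lower in the same order of groups, and medians of 0.29, 0.26, 0.37 and 0.26. Cxcl10, a chemokine, had 2 counts in WT CD4 together, and 38 (CD4hi), 66 (DP), 36 (CD4lo) and 8 (WT CD8) in the other groups. The ratio to WT CD4 was 31.4 in DP (95% exact interval 8.36 to 265, counting error only). Targets shared with or typical of type I interferon gave 19, 19, 20 and 21 of 21 higher and 0 lower, with medians of 1.47, 1.39, 1.48 and 1.45. Ifit3, an antiviral IFIT protein, was higher by 2.80 to 3.25 and Mx1, a dynamin-like antiviral GTPase, by 3.06 to 3.28. Of 8 type I signalling genes, 5, 4, 4 and 4 were higher and 0 lower, among them Irf7 (1.18 to 1.52) and Usp18 (1.19 to 1.37). Beside these 3 lists, 8.82% to 11.1% of all tested genes were higher and 6.43% to 10.6% lower. Whether these lists differ from the members in size of change was not tested.

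Of 12 genes of ATG8 conjugation, the autophagy machinery that brings GBPs and IRGs to vacuoles, only Map1lc3b was called in the comparisons with WT CD4, higher by 0.52 to 0.62 in all 4, where 8.82% to 11.1% of all tested genes were higher. For 6 genes of prenylation, which anchors some GBPs to membranes, edgeR and DESeq2 each called 0 of 24 values there, with 2 at an unadjusted edgeR p under 0.05. These values share the WT CD4 libraries and are not independent. Of all tested genes, edgeR called 8.82% to 11.1% higher and 6.43% to 10.6% lower, and DESeq2 called 10.4% to 14.4% in either direction. Of 7 tested inflammasome genes, the DNA sensor Aim2 was higher in all 4 comparisons (0.66 to 0.77) and Casp1 in the 3 OB11/OB11 groups (0.94 to 1.45). Lower were 2 of the 7 in WT CD8 and 1 in CD4lo, against 10.6% and 7.02% of all tested genes.

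**Figure D5:**
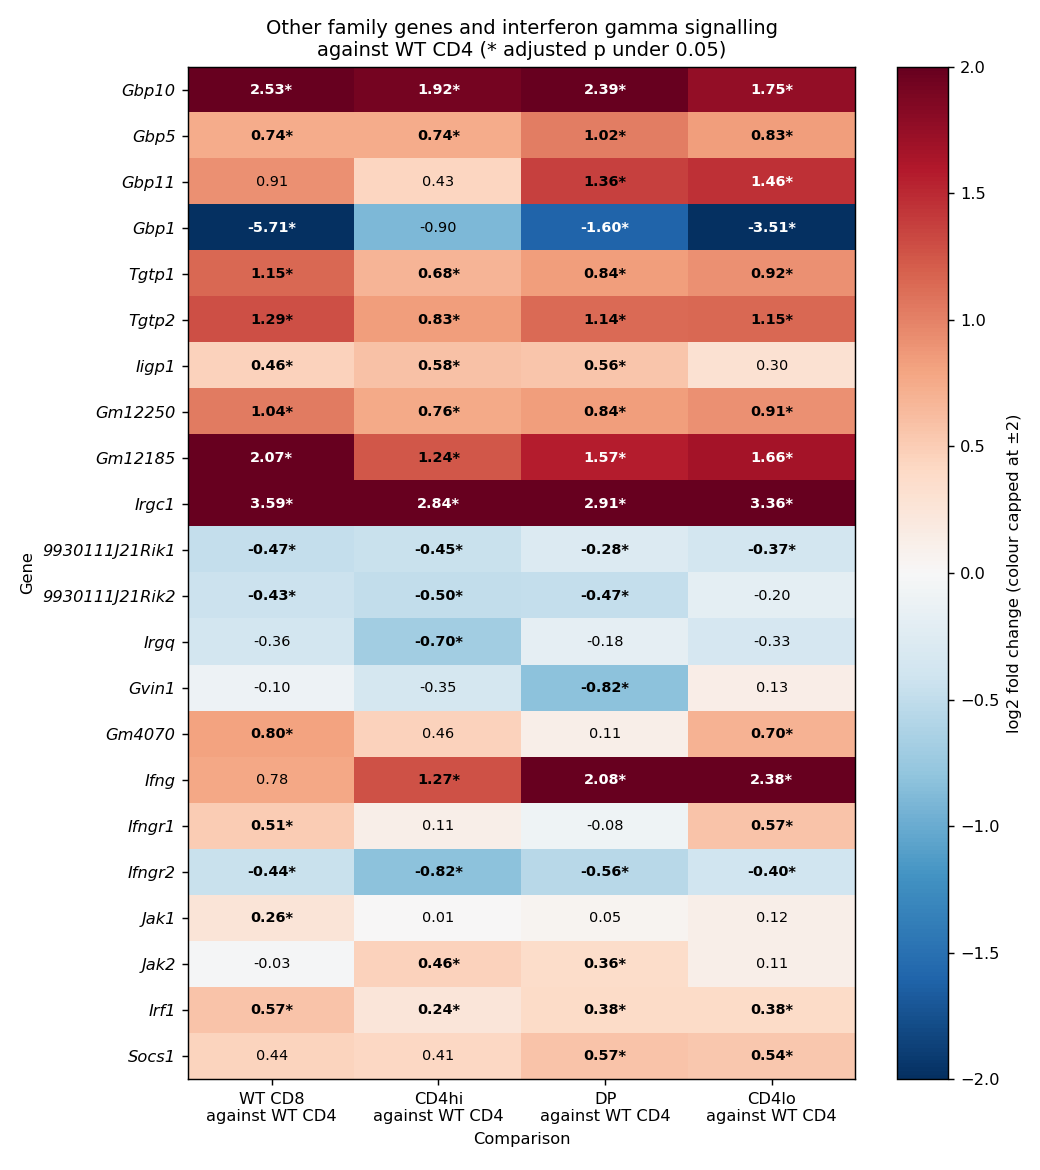
Log2 fold change of 15 further GBP and IRG genes and 7 interferon gamma signalling genes in the 4 comparisons with WT CD4, as numbers and colour capped at 2, with an asterisk where the edgeR adjusted p was under 0.05. Gbp10, Gbp5, Tgtp1, Tgtp2, Gm12250, Gm12185, Irgc1 and Irf1 are higher in every column, and Ifngr2 and 9930111J21Rik1 are lower in every column.

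Markers of other cells also differed between the groups, and many GBP and IRG genes are expressed in those cells. NK cell markers, all 10 in the table, summed to 10.3 to 11.8 CPM (WT CD4), 46.4 to 50.3 (CD4hi), 80.7 to 92.5 (DP), 151 to 164 (CD4lo) and 134 to 147 (WT CD8). The list includes Eomes, which CD8 T cells also express. Effector and memory T cell markers, 12 of 12, summed to 307 to 310 CPM (WT CD4), 708 to 740 (CD4hi), 618 to 628 (DP), 652 to 687 (CD4lo) and 385 to 397 (WT CD8). B cell markers, 12 of 12, summed to 47.1 to 75.2 (WT CD4), 65.4 to 85.6 (CD4hi), 232 to 271 (DP), 90.3 to 102 (CD4lo) and 320 to 343 (WT CD8). Macrophage markers, 13 of 14, summed to 11.9 to 20 CPM (WT CD4), 41.5 to 48 (CD4hi), 154 to 167 (DP), 30.8 to 34.3 (CD4lo) and 34.9 to 38.4 (WT CD8). Dendritic cell markers, 10 of 10, had their highest sum in WT CD4, at 176 to 189 against 121 to 162 elsewhere. Their list includes Ccr7, which is also on the naive T cell list. Gene by gene the order differed. The median log2 fold change of the 7 tested dendritic cell markers against WT CD4 was 0.69 (WT CD8), 0.39 (CD4hi), 1.02 (DP) and -0.39 (CD4lo). Neutrophil markers, 10 of 10, summed to at most 5.7 in any library. Gamma delta T cell markers, 5 of 8, summed to 112 to 117 in CD4lo and at most 4.86 elsewhere. Regulatory T cell markers, 8 of 8, went from 441 to 449 in WT CD4 and 513 to 530 in CD4hi to 60.2 to 67.1 in WT CD8. No marker of these lists was at 0 in all 10 libraries. The mean sums of NK, effector and memory, B cell, macrophage and gamma delta T cell markers were lowest in WT CD4, as were the means of the members, and those of dendritic cell and neutrophil markers were highest there. For B cell markers the WT CD4 libraries overlapped those of CD4hi. Gamma delta T cell markers spanned 1.07 to 4.72 in WT CD4 and overlapped every group but CD4lo. Neutrophil markers spanned 2.13 to 5.7 there and overlapped CD4hi, DP and CD4lo. The part of these other cells in the members' change was not tested.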

How the data were processed

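RNA from 10 libraries of sorted naive T cells was sequenced by the authors after depletion of ribosomal cDNA in a directional library made from 10 ng of total RNA, per the labels' protocols. Unnormalised counts of reads for each gene symbol were deposited, made by the authors with TopHat2 and HTSeq on mm10 per the submitters' processing notes; versions, annotation and strand setting are not given in the sources used here. Counts carry no molecular identifiers, so intervals cover counting error only. With R 4.3.3 and edgeR 4.0.16, genes were kept by filterByExpr (12193 of 34573, holding 99.7% of counts), scaled by TMM and fitted in 1 quasi-likelihood model of all 10 libraries by group, with 5 residual degrees of freedom. Tests were two-sided, with Benjamini-Hochberg adjustment over all tested genes and a threshold of 0.05, and SE is the size of the log2 fold change over the root of F. Alternatives used other scalings, filters, limma 3.58.1 (voom), DESeq2 1.42.0, a replicate block and the omission of each library. The script was tested on simulated data. Positions come from GENCODE M21, and 10991 tested symbols were found there. All members are named, as are all tested genes of the GBP and IRG list, a fixed set of signalling genes and, from other lists, the called genes with the 2 highest and 2 lowest mean changes against WT CD4. Some genes that this rule names are not reported here. Members and gene lists were chosen with earlier results of these data known.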

Additional observations from a re-analysis of the deposited data

How the results depend on the processing

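The count of members called against WT CD4 was 9 in WT CD8, 10 in DP and 9 in CD4lo under each of the 18 alternatives run, and 7 to 9 in CD4hi (9 as reported; 7 to 9 with 1 library left out, 8 to 9 otherwise). Among the other groups the small counts moved. For CD4lo against CD4hi the 2 calls became 1 without a filter on low counts, 1 with DESeq2, 3 with RLE size factors and 3 with limma-voom, and 0 to 4 with 1 library left out. For CD4lo against DP the 2 calls became 1 without the filter, 0 with DESeq2 and 1 with the replicate block, and 0 to 2 with 1 library left out. For CD4hi against WT CD8 the 4 calls became 2 with DESeq2, 7 when only the libraries compared were fitted, 5 with limma-voom and 3 with the replicate block, and 0 to 5 with 1 library left out. For DP against WT CD8 the 2 calls became 1 without the filter, 1 with a filter of at least 1 CPM in 2 libraries, 0 with DESeq2, 1 with the replicate block and 3 when only the libraries compared were fitted, and 0 to 2 with 1 library left out. For CD4lo against WT CD8 the count was 0, and 0 to 1 with 1 library left out. DP against CD4hi gave 0 throughout. Causes were not tested. Of 1800 recomputed fold changes of members, 1717 stayed on their side of the threshold (778 called and 939 not called), 15 gained a call, 68 lost it and 0 turned direction while called. The replicate numbers are only a shared number: deviations of same-numbered libraries correlated between -0.548 and 0.126 across pairs of groups, and with 2 numbers no pairing was taken from them. Leaving out 1 library leaves a group with 1, which is then assumed to vary like the others. Without the filter, the median log2 fold change of all genes tested moved by -0.257 in WT CD8, -0.199 in DP and -0.233 in CD4lo against WT CD4.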
